A study of Mus musculus with 9 samples.

Results

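YAP-TEAD target genes are genes that TEAD DNA-binding proteins switch on together with the coactivators YAP and TAZ. The 10 examined here (Ccn1, Ccn2, Ankrd1, Axl, Crim1, Amotl1, Amotl2, Lats2, Wwc1 and Tead1) were named as a list rather than selected by a threshold on these arrays, and all 10 were among the 19935 genes tested. Each was read from its brightest single-symbol probe set. The samples were NIH 3T3 mouse fibroblasts that stably carried an shRNA against Net (NetKD, 3 arrays), an shRNA against Sap-1 (SapKD, 3 arrays) or the pLKO.1 control vector (Control, 3 arrays). Net is the product of Elk3 and Sap-1 that of Elk4, and both are ternary complex factors, which carry an ETS domain and act beside serum response factor (SRF). Cells of every group attached for 2 hours, went without serum overnight and then received bovine serum for 1 hour, at 10% by the sample protocols and 20% by the series description. No array was taken without serum, so the serum response of these genes was not measured. The labels call the 3 arrays of a group biological replicates and do not say how many stable lines or shRNA sequences stand behind them, so p-values may not cover differences between independently made lines.

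In the Hippo pathway the kinases encoded by Stk3 and Stk4 activate LATS1 and LATS2, which phosphorylate YAP and TAZ and keep them out of the nucleus. When the pathway is off, as in spread cells under tension or after serum, YAP and TAZ enter the nucleus and act with TEAD proteins. The targets include secreted matrix proteins, cell surface receptors and, as negative feedback, several inhibitors of YAP itself. Ccn1, Ccn2 and Ankrd1 are also known targets of SRF.

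Promoter windows from RefSeq (GRCm38.p6), of 250 bases before to 50 bases after a transcription start, were found for 8 of the 10 genes, with 2 starts for Lats2 and so 9 windows. Ccn2 and Tead1 had no window. The TEAD motif GGAATG, searched on both strands (CATTCC on the other), lay in 6 of the 9 windows, against 14.7% of all 32851 windows of this length. The genes were listed because they are TEAD targets, so this count is a description and no independent observation. The stretches before the start are shown for a gene that rose in both knockdowns (Ankrd1), one that moved in opposite directions (Crim1), one that rose in NetKD cells alone by the test (Amotl2) and one that did not pass (Ccn1), with the motif in capitals.
Ankrd1: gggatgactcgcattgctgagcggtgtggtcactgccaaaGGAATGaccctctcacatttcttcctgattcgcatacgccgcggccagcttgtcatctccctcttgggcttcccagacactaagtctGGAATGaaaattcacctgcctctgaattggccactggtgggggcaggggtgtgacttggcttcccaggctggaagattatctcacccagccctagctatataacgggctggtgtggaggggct
Crim1: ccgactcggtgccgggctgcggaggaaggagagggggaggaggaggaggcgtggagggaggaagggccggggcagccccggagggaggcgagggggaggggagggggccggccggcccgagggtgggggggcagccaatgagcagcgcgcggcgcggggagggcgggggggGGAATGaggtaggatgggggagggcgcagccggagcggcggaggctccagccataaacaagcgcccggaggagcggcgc
Amotl2: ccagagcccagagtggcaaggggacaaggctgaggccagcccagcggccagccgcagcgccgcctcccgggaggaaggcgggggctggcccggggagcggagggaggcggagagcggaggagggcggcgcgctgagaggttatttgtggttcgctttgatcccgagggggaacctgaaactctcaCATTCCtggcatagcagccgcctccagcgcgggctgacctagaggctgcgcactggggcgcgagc
Ccn1: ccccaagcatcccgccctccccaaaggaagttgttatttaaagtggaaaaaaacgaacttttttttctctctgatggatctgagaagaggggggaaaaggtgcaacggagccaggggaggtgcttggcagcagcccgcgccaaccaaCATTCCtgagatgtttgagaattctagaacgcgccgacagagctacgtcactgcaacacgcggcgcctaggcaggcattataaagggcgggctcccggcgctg
These are the 250 bases before the start of Ankrd1 (chr19:36119845-36120094, minus strand), Crim1 (chr17:78199998-78200247, plus strand), Amotl2 (chr9:102717554-102717803, plus strand) and Ccn1 (chr3:145649986-145650235, minus strand).

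Ankrd1 held the motif at 2 places, 210 and 123 bases before the start. It began 103 bases before the start in Ccn1, 79 bases before in Crim1, 65 bases before in Amotl2 and 233 bases before in Axl, and in Lats2 it began at base 5 after the first start. The windows of Amotl1 and Wwc1 and the other Lats2 window did not hold these letters. The longer form GGAATGT, which on the other strand reads ACATTCC, lay in 3 of the 9 windows, those of Ccn1, Amotl2 and Axl, against 3.85% of all windows. Net and Sap-1 recognise a GGAA core, which lies inside the TEAD motif, so the motifs overlap. The stricter ETS letters CCGGAA, which on the other strand read TTCCGG, lay in 1 window, that of Wwc1, beginning 4 bases before the start, against 14.9% of all windows. The CArG box, the motif of SRF, had 0 matches on either strand of the 9 windows, against 1.63% of all windows. A match is not evidence of binding, and a missing match says only that the letters are not in that window.

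**Figure D1:**
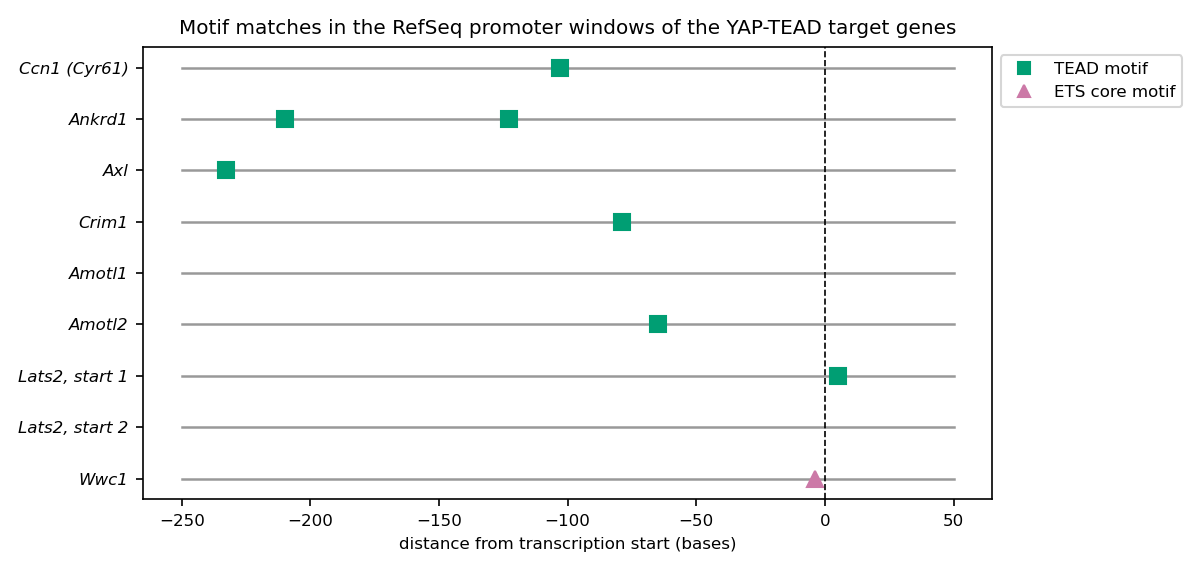
Motif matches in the promoter windows, drawn by distance in bases from the transcription start. Squares mark the TEAD motif, the triangle the ETS letters and the dashed line the start; Ankrd1 has 2 TEAD motifs, and Amotl1, Wwc1 and the second Lats2 start have none.

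The arrays gave 1 log2 level per probe set, with array medians of 7.47 to 7.54 and highest values of 14.39 to 14.47. Across genes, Pearson correlations were 0.9982 to 0.9992 within a group and 0.9866 to 0.9941 between groups. Precision is limited by having 3 arrays a group. Elk3 lay at 11.06, 11.08 and 11.10 in NetKD cells and at 11.37, 11.40 and 11.38 in SapKD cells, against 11.48, 11.52 and 11.52 in Control cells. Elk4 lay at 10.58, 10.66 and 10.64 in NetKD cells and at 9.50, 9.54 and 9.55 in SapKD cells, against 11.03, 11.05 and 11.13 in Control cells. Both factors were therefore lower in NetKD cells (Elk3 -0.42, Elk4 -0.44, limma adjusted p = 1.06e-05 and 2.34e-05), while SapKD cells had mainly less Elk4 (-1.54, adjusted p = 9.25e-10) and an Elk3 difference of -0.12 (adjusted p = 0.0227), which was lost without Control array 2 or 3 or SapKD array 1 (adjusted p = 0.0636 to 0.0706) and with median centring (adjusted p = 0.122). Srf fell by 0.19 in SapKD cells (SE 0.047, adjusted p = 0.00845) and lay at 0.0056 in NetKD cells (adjusted p = 0.96), and Elk1 passed in neither (0.019 in NetKD and -0.079 in SapKD cells, adjusted p = 0.849 and 0.266). Fibroblast markers averaged 11.69 to 11.81 per array, although Fap lay at 4.58 to 4.75, and lists of epithelial, endothelial, macrophage and skeletal muscle markers averaged 6.67 to 7.40. In SapKD cells 4 of 9 fibroblast markers passed, with Col3a1 (-0.34), Thy1 (-0.32) and Col1a1 (-0.13) lower and P4hb (0.21) higher, and in NetKD cells 2, with P4hb (0.15) higher and Pdgfrb (-0.14) lower. Of 7 epithelial markers 1 passed in NetKD cells (Cdh1, 0.38), and of 6 endothelial markers 1 in SapKD cells (Cdh5, 0.84). Of 6 macrophage markers, Cd14 lay at 0.41 in NetKD and 0.21 in SapKD cells and Cd68 at 0.23 and -0.23, and all 4 differences passed. The fibroblast shares were 44.4% in SapKD and 22.2% in NetKD cells. Beside them, 29.7% and 23.6% of all genes passed, and 49.2% and 40.6% of genes at or above the median level. The epithelial share in NetKD cells was 14.3%, the endothelial share in SapKD cells 16.7% and the macrophage share 33.3% in each line. The part of these markers in the results was not tested.

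Differences were tested with limma in a single model of all 9 arrays, with Benjamini-Hochberg adjustment over the 19935 genes, and those with an adjusted p under 0.05 are described as passing. In NetKD against Control cells, 3 of the 10 genes rose (Ankrd1, Wwc1 and Amotl2) and 4 fell (Amotl1, Crim1, Tead1 and Axl), where 13.4% of all genes rose, 10.2% fell and 23.6% did either. In SapKD against Control cells, 4 rose (Wwc1, Ankrd1, Crim1 and Amotl1) and 2 fell (Tead1 and Lats2), where 15.8% of all genes rose, 13.9% fell and 29.7% did either. All 10 genes stood at or above the median gene level, and of such brighter genes 40.6% passed in NetKD and 49.2% in SapKD cells. The arrays of knockdown and Control did not overlap for 7 of the 10 genes in NetKD and 8 in SapKD cells, against 34.3% and 41% of all genes. The median of the 10 differences was -0.033 in NetKD and 0.072 in SapKD cells, beside -0.00228 and -0.018 over all genes. The list thus had members on both sides in each line, and the much-used YAP reporters Ccn1 and Ccn2 passed in neither. Both comparisons share the Control arrays.

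**Figure D2:**
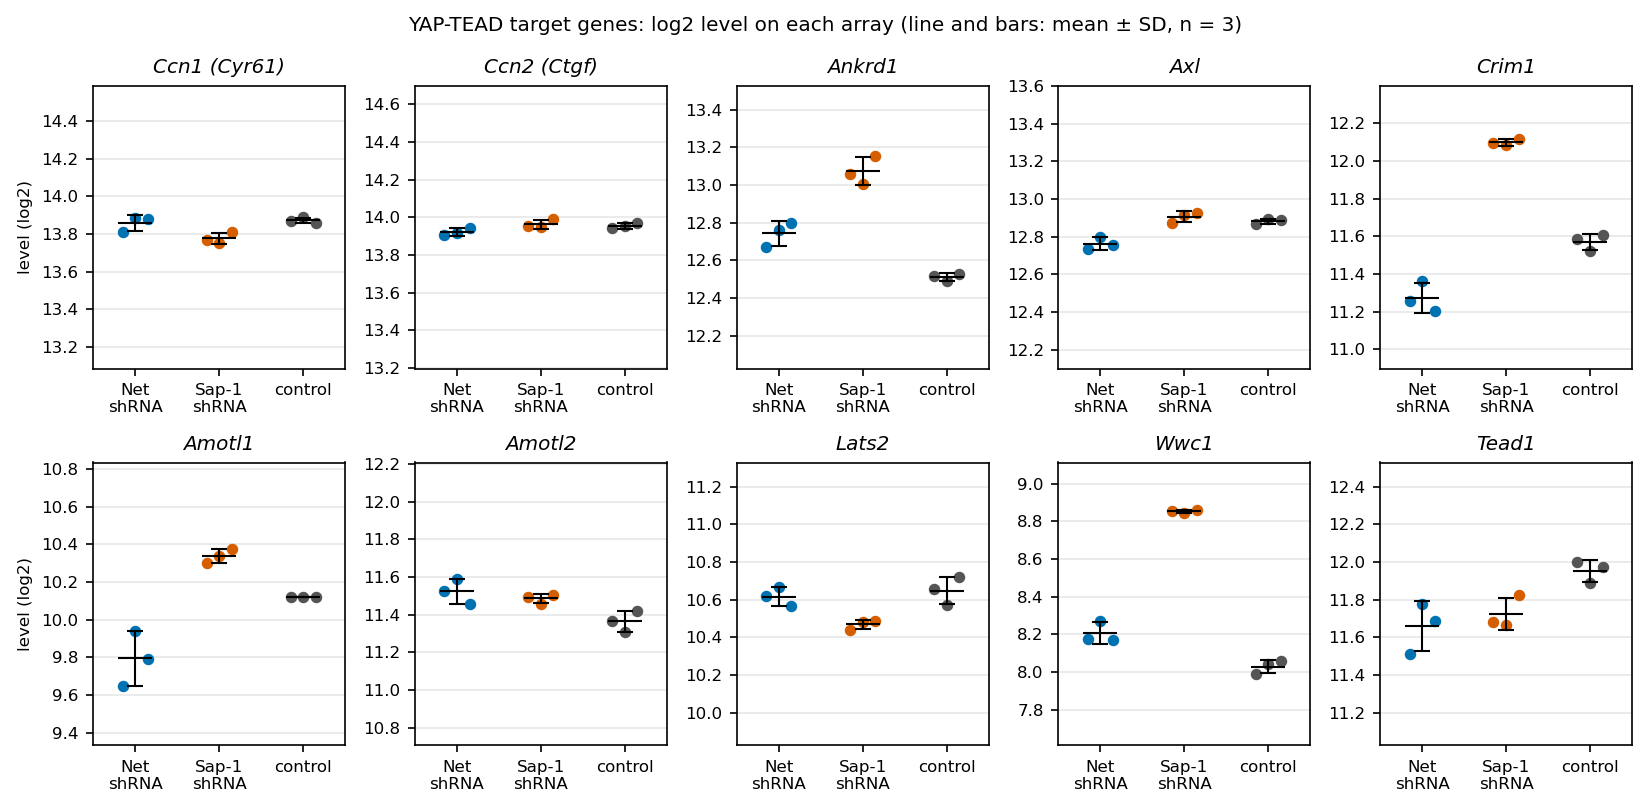
Log2 level of the 10 genes on every array, for Net shRNA (NetKD), Sap-1 shRNA (SapKD) and control cells from left to right. Points are arrays, with mean ± SD (n = 3); Crim1, Amotl1, Wwc1 and Ankrd1 are highest on the 3 SapKD arrays, while Ccn1 spans 13.75 to 13.89 and Ccn2 13.90 to 13.99 over all arrays.

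Ccn1, also called Cyr61, and Ccn2, also called Ctgf, encode secreted CCN matricellular proteins that bind integrins and growth factors. Ccn1 (probe set 10502655) lay at 13.81, 13.89 and 13.88 in NetKD cells and at 13.77, 13.75 and 13.81 in SapKD cells, against 13.87, 13.89 and 13.86 in Control cells. The SapKD arrays were the lowest and did not overlap with Control, while the NetKD arrays did. The difference was -0.095 in SapKD cells (SE 0.039, limma adjusted p = 0.0955, 95% interval -0.18 to -0.0093) and -0.013 in NetKD cells (adjusted p = 0.88, interval -0.098 to 0.073). The SapKD difference did pass with an intensity trend and robust variances, after cyclic loess and with array weights (limma adjusted p = 0.0117, 0.0353 and 0.0237). Ccn2 (probe set 10362201) lay at 13.90, 13.92 and 13.94 in NetKD cells and at 13.95, 13.95 and 13.99 in SapKD cells, against 13.94, 13.95 and 13.97 in Control cells. Its groups overlapped with Control, and the differences were -0.034 in NetKD (adjusted p = 0.607, interval -0.11 to 0.046) and 0.0081 in SapKD cells (adjusted p = 0.904, interval -0.072 to 0.088). Both genes stood near the upper end of the arrays' scale, and whether their probes saturated was not tested.

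Of the 4 other CCN genes, 1 rose in NetKD cells and 3 in SapKD cells (25% in NetKD and 75% in SapKD cells, beside 23.6% and 29.7% of all genes), so the NetKD share was near that of all genes. Ccn3 (Nov) lay at 7.64, 7.73 and 7.73 in NetKD cells and at 8.58, 8.78 and 8.80 in SapKD cells, against 6.96, 6.90 and 7.01 in Control cells, with no overlap between any of the groups. It rose by 0.74 in NetKD (SE 0.061, adjusted p = 8.05e-06) and by 1.76 in SapKD cells (SE 0.061, adjusted p = 4.65e-09). Its Control level lay below the array medians and within the range of the marker lists of other cell types, so it was not shown to be above background and the size of these differences is uncertain. Ccn4 (Wisp1), known as a target of Wnt signalling, rose by 0.55 in SapKD cells (SE 0.071, adjusted p = 0.000114). Ccn5 (Wisp2) rose by 0.15 there (SE 0.048, adjusted p = 0.0386), a call lost without any 1 of the Control or SapKD arrays (adjusted p = 0.0535 to 0.124).

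Ankrd1 encodes an ankyrin repeat protein that is induced by stretch and is abundant in striated muscle. Ankrd1 (probe set 10467191) lay at 12.67, 12.76 and 12.80 in NetKD cells and at 13.06, 13.01 and 13.15 in SapKD cells, against 12.52, 12.49 and 12.53 in Control cells. No group overlapped with another, and the order was SapKD, NetKD, Control. The gene rose 1.17-fold in NetKD cells (log2 0.23, SE 0.049, adjusted p = 0.00521) and 1.48-fold in SapKD cells (log2 0.56, SE 0.049, adjusted p = 6.87e-06). NetKD and SapKD cells differed by -0.33 (SE 0.049, adjusted p = 0.000389). Of 6 skeletal muscle markers, 1 rose in NetKD cells (Des, 0.38, adjusted p = 0.00516) and 2 in SapKD cells (Des, 0.63, and Acta1, 0.42, adjusted p = 0.000129 and 2.83e-05), shares of 16.7% in NetKD and 33.3% in SapKD cells beside 23.6% and 29.7% of all genes. Ckm lay at -0.15 in SapKD cells and did not pass (adjusted p = 0.0619). The 6 markers averaged 7.27 to 7.29 per array in NetKD, 7.29 to 7.40 in SapKD and 7.19 to 7.34 in Control cells, with the defining genes Myod1 at 7.10 to 7.32 and Myog at 6.62 to 6.92 over all arrays, and their part in the Ankrd1 result was not tested.

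Crim1 encodes a membrane-anchored protein with cysteine-rich repeats that binds bone morphogenetic proteins, and it moved in opposite directions in the knockdowns. Crim1 (probe set 10446986) lay at 11.25, 11.36 and 11.20 in NetKD cells and at 12.10, 12.08 and 12.12 in SapKD cells, against 11.59, 11.52 and 11.60 in Control cells. The Control arrays lay between the other groups with no overlap. Crim1 fell by 0.30 on the log2 scale in NetKD cells (SE 0.047, adjusted p = 0.000845) and rose by 0.53, or 1.44-fold, in SapKD cells (SE 0.047, adjusted p = 7.96e-06). Its level in NetKD cells was 56.4% of that in SapKD cells (log2 -0.83, SE 0.047, adjusted p = 2.07e-07), the largest difference between the knockdowns among the 10 genes.

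Axl encodes a receptor tyrosine kinase of the TAM family, whose ligand is the vitamin K-dependent protein Gas6. Axl (probe set 10561104) lay at 12.73, 12.80 and 12.75 in NetKD cells and at 12.87, 12.91 and 12.93 in SapKD cells, against 12.87, 12.89 and 12.89 in Control cells. The 3 NetKD arrays were the lowest. Axl fell by 0.12 in NetKD cells (SE 0.038, adjusted p = 0.0404), a small difference whose call was lost without any 1 of the Control arrays, NetKD array 1 or 3, or SapKD array 2 (adjusted p = 0.0592 to 0.107). The call was also lost with the 6 compared arrays alone and with median centring (limma adjusted p = 0.0535 and 0.0949). In SapKD cells Axl lay at 0.023 (adjusted p = 0.713, interval -0.061 to 0.11), and NetKD and SapKD cells differed by -0.14 (SE 0.038, adjusted p = 0.0146).

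The ligand and a sister receptor of Axl had larger differences. Gas6 lay at 11.25, 11.44 and 11.42 in NetKD cells and at 9.61, 9.67 and 9.68 in SapKD cells, against 10.01, 10.13 and 10.16 in Control cells. It rose by 1.27 in NetKD cells (SE 0.059, adjusted p = 9.37e-08) and fell by 0.45 in SapKD cells (SE 0.059, adjusted p = 0.000138). The receptor gene Mertk fell by 0.24 in NetKD (SE 0.054, adjusted p = 0.00674) and by 1.45 in SapKD cells (SE 0.054, adjusted p = 8.87e-09). The receptor gene Tyro3 and the ligand gene Pros1 did not pass, at -0.042 and -0.061 in NetKD and 0.0076 and -0.13 in SapKD cells.

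The feedback inhibitors among the targets did not move together. Amotl1 and Amotl2 encode angiomotin-like proteins that bind YAP and hold it at junctions and in the cytoplasm. Amotl1 (probe set 10590918) lay at 9.65, 9.94 and 9.79 in NetKD cells and at 10.30, 10.34 and 10.38 in SapKD cells, against 10.12, 10.12 and 10.12 in Control cells. The NetKD arrays were all lower and the SapKD arrays all higher than Control, with the widest spread among the NetKD arrays. Amotl1 fell by 0.33 in NetKD cells (SE 0.063, adjusted p = 0.0029) and rose by 0.22 in SapKD cells (SE 0.063, adjusted p = 0.0224). The rise was lost without any 1 of the Control arrays or SapKD array 2 or 3 (adjusted p = 0.0582 to 0.0751). NetKD and SapKD cells differed by -0.54 (SE 0.063, adjusted p = 5.9e-05).

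Amotl2 (probe set 10588226) lay at 11.52, 11.59 and 11.46 in NetKD cells and at 11.50, 11.46 and 11.50 in SapKD cells, against 11.37, 11.31 and 11.42 in Control cells. Both knockdowns lay above Control with no overlap and overlapped with each other. Amotl2 rose by 0.16 in NetKD cells (SE 0.046, adjusted p = 0.0273), a call lost without Control array 1 or 2 or NetKD array 1 or 2 (adjusted p = 0.0571 to 0.107). The call was also lost with the 6 compared arrays alone (limma adjusted p = 0.0572). Amotl2 lay 0.12 higher in SapKD cells without passing (adjusted p = 0.0728, interval 0.020 to 0.22), and passed there with an intensity trend and robust variances or among brighter genes alone (adjusted p = 0.0394 and 0.0409). The family member Amot is not on the target list. It lay at 9.43, 9.68 and 9.65 in NetKD cells and at 9.13, 9.27 and 9.30 in SapKD cells, against 10.11, 10.11 and 10.13 in Control cells, and fell by 0.53 in NetKD (SE 0.067, adjusted p = 0.000189) and by 0.88 in SapKD cells (SE 0.067, adjusted p = 2.39e-06). Of the 3 angiomotin genes, Amot thus fell in both lines, Amotl1 moved in opposite directions and Amotl2 lay higher in both.

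Lats2 encodes a kinase that phosphorylates YAP. Lats2 (probe set 10420413) lay at 10.62, 10.67 and 10.56 in NetKD cells and at 10.44, 10.48 and 10.49 in SapKD cells, against 10.65, 10.57 and 10.72 in Control cells. The 3 SapKD arrays were the lowest, and the NetKD arrays overlapped with Control. Lats2 fell by 0.18 in SapKD cells (SE 0.047, adjusted p = 0.0137), a call lost without Control array 3 or SapKD array 1 (adjusted p = 0.0517 to 0.0578), and lay at -0.032 in NetKD cells (adjusted p = 0.726, interval -0.14 to 0.072). It was 0.15 above the SapKD level in NetKD cells (SE 0.047, adjusted p = 0.0388), a call lost without Control array 1, NetKD array 1 or 2, or any 1 of the SapKD arrays (adjusted p = 0.0505 to 0.126), and also under the replicate block, median centring and array weights (adjusted p = 0.0574, 0.116 and 0.0501).

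Wwc1 encodes KIBRA, a scaffold that promotes LATS activation at the cell cortex, and it had the largest difference from Control among the 10 genes. Wwc1 (probe set 10385175) lay at 8.18, 8.27 and 8.17 in NetKD cells and at 8.85, 8.85 and 8.86 in SapKD cells, against 7.99, 8.04 and 8.06 in Control cells. No group overlapped with another, and the SapKD arrays stood well above the rest. Wwc1 rose 1.13-fold in NetKD cells (log2 0.18, SE 0.042, adjusted p = 0.00922) and 1.77-fold in SapKD cells (log2 0.83, SE 0.042, adjusted p = 8.84e-08). Its level in NetKD cells was 63.8% of that in SapKD cells (log2 -0.65, SE 0.042, adjusted p = 5.61e-07). The rise in SapKD cells was the only difference from Control to reach 1.5-fold among the 10 genes, a size that 2.56% of all genes passed in NetKD and 4.46% in SapKD cells. The Control level of Wwc1 lay above the array medians but within the range of the marker lists of other cell types. Epithelial markers, for example, reached 8.42 in Control cells. Wwc1 was thus not shown to be above background there, and the size of its differences is uncertain.

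**Figure D3:**
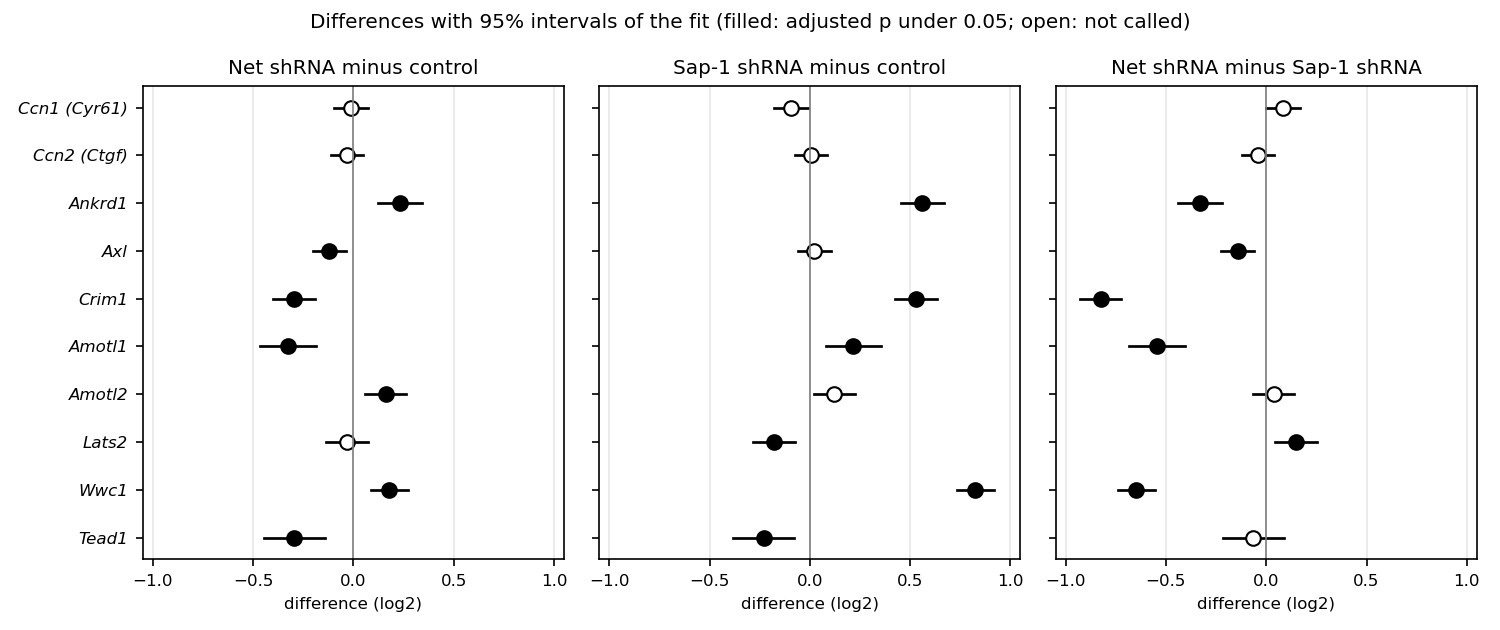
Log2 differences of the 10 genes with 95% intervals of the limma fit, for Net shRNA minus control, Sap-1 shRNA minus control and Net shRNA minus Sap-1 shRNA; filled points passed and open points did not. Crim1 and Amotl1 lie below 0 in NetKD and above 0 in SapKD cells, and Wwc1 lies farthest from 0 in SapKD against Control cells, at 0.83.

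Tead1 encodes a TEAD DNA-binding factor, the partner through which YAP and TAZ act, and was the only one of the 10 genes that fell in both lines by the test. Tead1 (probe set 10556456) lay at 11.51, 11.78 and 11.69 in NetKD cells and at 11.68, 11.67 and 11.82 in SapKD cells, against 12.00, 11.89 and 11.97 in Control cells. Both knockdowns lay below Control without overlap and overlapped with each other. Tead1 fell by 0.29 in NetKD cells (SE 0.069, adjusted p = 0.00899) and by 0.23 in SapKD cells (SE 0.069, adjusted p = 0.0272), and the knockdowns differed by -0.066 (adjusted p = 0.565, interval -0.22 to 0.086). The SapKD call was lost without Control array 1 or 3 or SapKD array 1 or 2 (adjusted p = 0.0804 to 0.1), and with arrays centred on their medians (adjusted p = 0.065). Tead1 alone had a second probe set (10556442), which lay at 11.39, 11.50 and 11.45 in NetKD cells and at 11.43, 11.46 and 11.51 in SapKD cells, against 11.75, 11.68 and 11.72 in Control cells. It differed from Control by -0.27 in NetKD and -0.25 in SapKD cells (limma adjusted p = 0.00103 and 0.00111), so both probe sets passed in both lines.

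The other TEAD genes and the coactivators are not on the target list but act on it. Of 8 such genes (Tead2 to Tead4, Yap1, Wwtr1 for TAZ and the Vgll2 to Vgll4 cofactors), limma found 0 higher and 3 lower in NetKD cells, with 0 higher also at an unadjusted p under 0.05, and 1 higher and 4 lower in SapKD cells. These are 37.5% in NetKD and 62.5% in SapKD cells, beside 23.6% and 29.7% of all genes and 40.6% and 49.2% of the brighter genes. Tead3 lay at 10.52, 10.47 and 10.38 in NetKD cells and at 10.37, 10.37 and 10.22 in SapKD cells, against 10.69, 10.75 and 10.77 in Control cells. It fell by 0.28 in NetKD (SE 0.054, adjusted p = 0.00281) and by 0.42 in SapKD cells (SE 0.054, adjusted p = 0.000136). Tead2 fell by 0.24 in NetKD and by 0.24 in SapKD cells (adjusted p = 0.00631 and 0.00485), so Tead1, Tead2 and Tead3 passed as lower in both lines. Tead4 lay at 9.84, 9.84 and 9.74 in NetKD cells and at 10.26, 10.35 and 10.27 in SapKD cells, against 9.70, 9.75 and 9.79 in Control cells. It rose by 0.55 in SapKD cells (SE 0.047, adjusted p = 5.56e-06) and lay at 0.060 in NetKD cells (adjusted p = 0.451).

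Yap1 lay at 10.53, 10.62 and 10.57 in NetKD cells and at 10.68, 10.68 and 10.71 in SapKD cells, against 10.72, 10.75 and 10.78 in Control cells. It fell by 0.18 in NetKD cells (SE 0.040, adjusted p = 0.0073) and lay at -0.058 in SapKD cells (adjusted p = 0.331, interval -0.15 to 0.030). Wwtr1 lay at 10.97, 10.97 and 10.92 in NetKD cells and at 10.64, 10.65 and 10.63 in SapKD cells, against 10.86, 10.86 and 10.93 in Control cells. It fell by 0.24 in SapKD cells (SE 0.039, adjusted p = 0.000566) and lay at 0.067 in NetKD cells (adjusted p = 0.276). Between NetKD and SapKD cells Wwtr1 differed by 0.31 (SE 0.039, adjusted p = 0.000103). For Yap1 that difference was -0.12 (SE 0.040, adjusted p = 0.0476), a call lost without any 1 array other than Control array 1 and NetKD array 2 (adjusted p = 0.0549 to 0.14). The Yap1 call was also lost under some other alternatives (limma adjusted p up to 0.0649). Vgll4, a cofactor that competes with YAP for TEAD, fell by 0.28 in SapKD cells (SE 0.052, adjusted p = 0.00166). Only mRNA was measured, and the phosphorylation and location of YAP and TAZ were not.

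**Figure D4:**
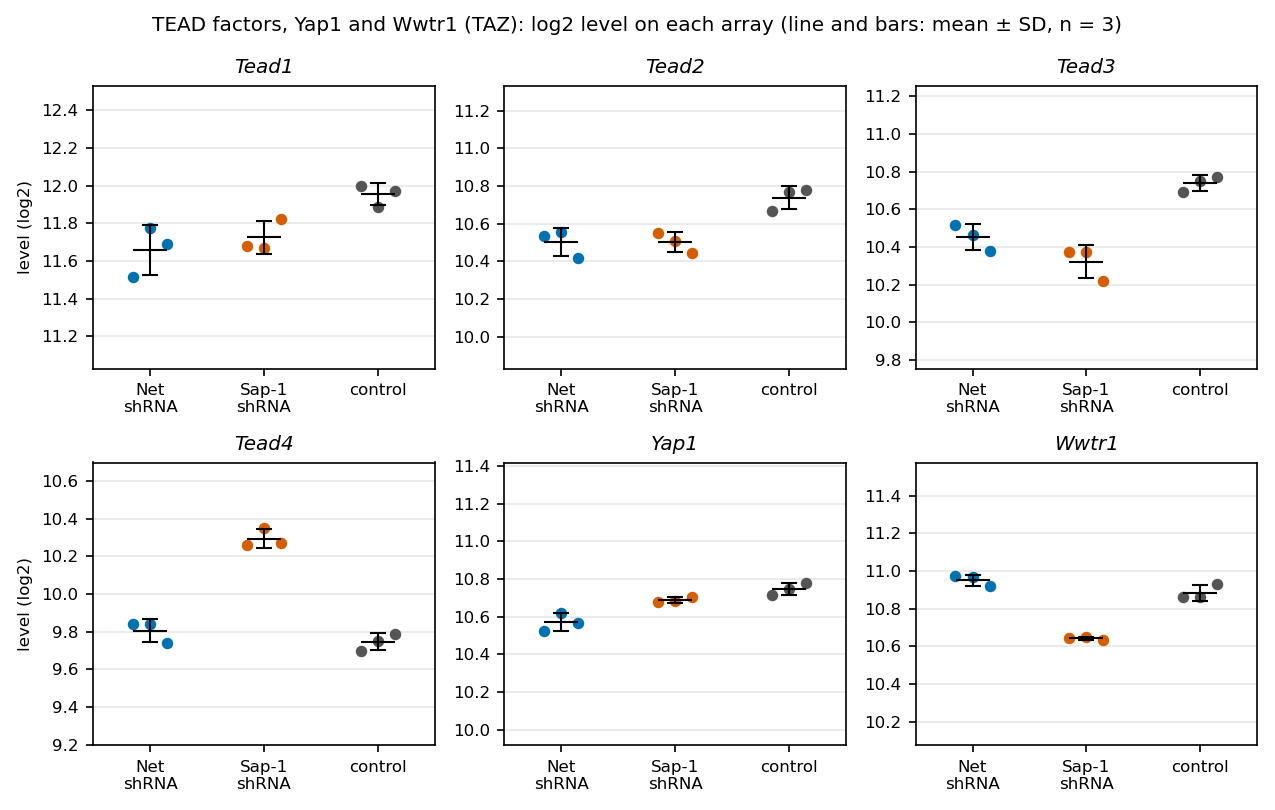
Log2 level of TEAD and coactivator genes on every array, for Net shRNA (NetKD), Sap-1 shRNA (SapKD) and control cells from left to right, with mean ± SD (n = 3). Tead2 and Tead3 are below Control in both knockdowns, Tead4 is highest in SapKD cells, Yap1 is lowest in NetKD cells and Wwtr1 is lowest in SapKD cells.

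Of 16 further YAP-TEAD targets, 2 rose and 5 fell in NetKD cells, and 5 rose and 7 fell in SapKD cells. These are 43.8% in NetKD and 75% in SapKD cells, beside 23.6% and 29.7% of all genes and 40.6% and 49.2% of the brighter genes. The NetKD share was thus near that of the brighter genes, although not all 16 are bright. Igfbp3 and Nt5e, for example, averaged 7.11 and 6.35 over the 9 arrays. The median differences of the 16 genes were -0.021 and -0.055. Tgfb2, which encodes a TGF-beta ligand, lay at 10.05, 10.25 and 10.21 in NetKD cells and at 8.03, 8.14 and 8.24 in SapKD cells, against 9.14, 9.17 and 9.20 in Control cells, far apart with Control in the middle. It rose by 1.00 in NetKD (SE 0.064, adjusted p = 1.32e-06) and fell by 1.04 in SapKD cells (SE 0.064, adjusted p = 4.86e-07). Asap1, an Arf GTPase-activating protein gene, and Gadd45a, a DNA damage response gene, went the other way. Asap1 fell by 0.48 in NetKD and rose by 0.38 in SapKD cells (adjusted p = 6.77e-06 and 2.13e-05). Gadd45a fell by 0.47 in NetKD and rose by 0.38 in SapKD cells (adjusted p = 0.00167 and 0.00423). Rbms3, an RNA-binding protein gene, fell by 0.40 in NetKD and 0.50 in SapKD cells (adjusted p = 0.000105 and 1.13e-05). The tissue factor gene F3 fell by 0.50 and Ccdc80 by 0.50 in SapKD cells (adjusted p = 4.48e-06 and 8.22e-06).

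Among 13 measured genes of the Hippo kinase core and its activators, 2 rose and 4 fell in NetKD cells, and 1 rose and 2 fell in SapKD cells. These are 46.2% in NetKD and 23.1% in SapKD cells, beside 23.6% and 29.7% of all genes and 40.6% and 49.2% of the brighter genes, so the SapKD share was below that of all genes. Besides Amot, the LATS cofactor gene Mob1b fell by 0.33 (SE 0.043, adjusted p = 0.000236) and Lats1 by 0.38 (SE 0.059, adjusted p = 0.000701) in NetKD cells, where Nf2, which encodes the upstream regulator merlin, rose by 0.31 (SE 0.049, adjusted p = 0.000861). The FERM-domain gene Frmd6 fell by 0.56 in SapKD cells (SE 0.083, adjusted p = 0.000348). The scaffold gene Sav1 rose by 0.14 there (adjusted p = 0.0498), a call lost without any 1 array other than NetKD arrays 1 and 2 (adjusted p = 0.0564 to 0.164). The Sav1 call was also lost under another alternative (limma adjusted p = 0.0512). Of 5 measured negative regulators of these kinases, Wtip fell by 0.20 in NetKD cells (SE 0.050, adjusted p = 0.0142), a call lost without Control array 1 or 3 (adjusted p = 0.0524 to 0.0582). For SapKD cells limma found 0 of them changed, with 1 lower at an unadjusted p under 0.05. The share of these regulators was 20% in NetKD cells, near the 23.6% of all genes, and 0% in SapKD cells, beside 29.7% of all genes. With 5 genes these shares are coarse.

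Because Ccn1, Ccn2 and Ankrd1 are also SRF targets, MRTF coactivators and SRF cytoskeletal targets were read beside them. In NetKD cells 7 of 13 fell and 0 rose by limma, with 1 higher at an unadjusted p under 0.05. The 7 include both coactivator genes, Mrtfa and Mrtfb. Mrtfb, read from 1 of its 3 probe sets, lay at 10.32, 10.92 and 10.81 in NetKD cells. Its Control arrays lay at 11.08, 11.10 and 11.04. The fall of 0.39 (SE 0.12, limma adjusted p = 0.0357) was largest on NetKD array 1, and its call was not followed through the alternatives. The SRF targets Acta2, Actb, Vcl, Tagln, Cnn1 and Tpm2 did not pass in NetKD cells, and Acta2 was the one that lay higher (0.082). The list had 53.8% of its genes passing in NetKD cells, beside 23.6% of all and 40.6% of the brighter genes. Myl9, a myosin light chain gene, fell by 0.43 (SE 0.063, adjusted p = 0.00051), the integrin gene Itga5 by 0.33 (SE 0.050, adjusted p = 0.000633) and the SRF coactivator gene Mrtfa by 0.22 (SE 0.041, adjusted p = 0.00276). The calponin gene Cnn2 fell by 0.20 (SE 0.037, limma adjusted p = 0.00205). Among these genes 1 rose and 1 fell in SapKD cells, the tropomyosin gene Tpm2 at 0.18 and the calponin gene Cnn1 at -0.23 (adjusted p = 0.00902 and 0.00578), and these 15.4% lie below the 29.7% of all genes. Cnn1 averaged 7.85 in Control cells, within the range of the marker lists of other cell types. It was thus not shown to be above background, and the size of its fall is uncertain.

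**Figure D5:**
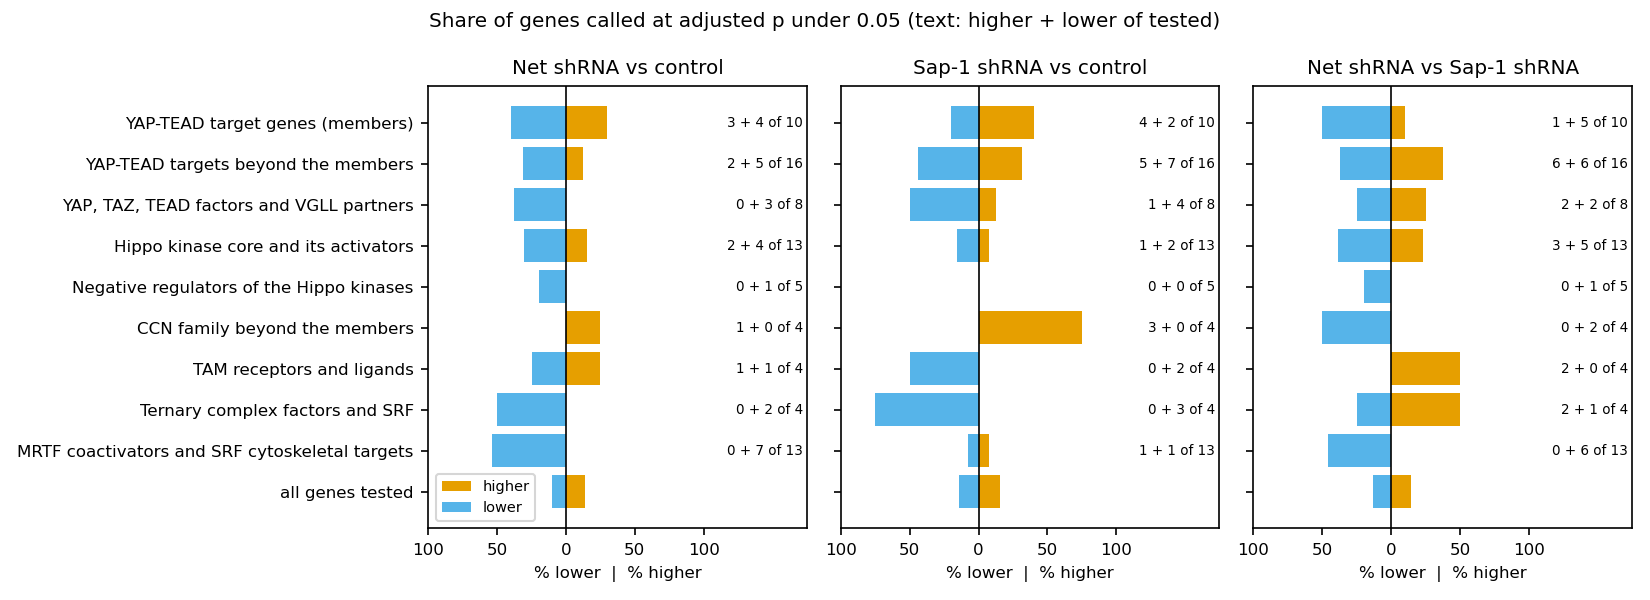
Share of each gene list that passed as higher (bars to the right) or lower (bars to the left) at an adjusted p under 0.05, in percent of the genes tested, for the 3 comparisons, with counts beside them. The 10 target genes have 3 higher and 4 lower in NetKD, and 4 higher and 2 lower in SapKD cells; the shortest lists hold 4 genes.

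The direct comparison of NetKD with SapKD cells tests where the lines differ from each other. Of the 10 genes, 5 were lower in NetKD cells (Crim1, Wwc1, Amotl1, Ankrd1 and Axl) and 1 was higher (Lats2, the call that did not hold under several alternatives), where 13.3% of all genes were lower, 14.2% higher and 27.5% either, and 46.1% of the brighter genes passed. The arrays did not overlap for 8 of the 10 genes, against 37.4% of all genes. Ccn1 lay at 0.083 (adjusted p = 0.156), Ccn2 at -0.042 (adjusted p = 0.475) and Amotl2 at 0.038 (adjusted p = 0.63), and none of these or Tead1 passed. With an intensity trend and robust variances, after cyclic loess and with array weights Ccn1 did pass as higher in NetKD than SapKD cells (adjusted p = 0.027, 0.0484 and 0.03). Crim1 and Wwc1 reached 1.5-fold, as did 4.64% of all genes. The median of the 10 differences was -0.10, beside 0.016 over all genes. Of the further targets, 6 of 16 were higher and 6 lower in NetKD cells, among them Tgfb2 (2.04, SE 0.064, adjusted p = 1.76e-09) and Asap1 (-0.85, SE 0.038, adjusted p = 2.7e-08).

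For Crim1 and Wwc1, which reached 1.5-fold, the genes with the nearest profile over the 9 arrays were sought among the other 19934 by Euclidean distance between mean-centred log2 levels. Nearest to Crim1 were Itpr3, an inositol trisphosphate receptor gene (distance 0.124), the kinase gene Oxsr1 (0.129) and the arrestin gene Arrb1 (0.153). Nearest to Wwc1 were the AMP deaminase gene Ampd3 (distance 0.107), the N-cadherin gene Cdh2 (0.139) and the tryptophan tRNA synthetase gene Wars (0.156). The distances are a description over 9 arrays that fall into 3 groups.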

How the data were processed

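RNA of 9 samples, 3 per group, was read on the Mouse Gene 1.0 ST array of Affymetrix. The deposited values are log2 levels that the authors obtained by RMA, with Expression Console named in the submitters' processing notes. Its version and the array's genome build are not given in the sources used here. RMA equalises the arrays' distributions and compresses differences of dim genes, and the files hold no detection calls. Of 28815 probe sets, 21780 carried 1 symbol, 1605 several and 5430 none, and a RefSeq table (GRCm38.p6) held the Entrez IDs of 21689. The probe set with the highest mean stood for a gene.

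limma (version 3.58.1, R 4.3.3) was run with a mean per group and no trend, on 6 residual and 4.7 prior degrees of freedom, after a test on simulated data. Intervals and standard errors are those of the model. The target genes, lists and tests were chosen with earlier results of these data known. The naming rule took the 10 targets, Elk1, Elk3, Elk4 and Srf, up to 4 passing genes per list and comparison with the smallest adjusted p, and the 3 nearest genes of targets that reached 1.5-fold. Some genes that it took, among them F3 and Gadd45a between the knockdowns, are not described in the text. Tyro3, Pros1, Mrtfb, Igfbp3, Nt5e, the SRF targets that did not pass and the markers named stand outside that rule. They were chosen after their values were seen. Stk3 and Actg1 were not analysed here.

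Alternatives were a replicate block, trended and robust variances, the 6 arrays compared alone, quantile, cyclic loess and median scaling, brighter genes, averaged probe sets, array weights, each array left out, a stricter adjusted p of 0.01, a 1.5-fold threshold and a longer TEAD motif.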

Additional observations from a re-analysis of the deposited data

How the results depend on the processing

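Of the 19 differences that passed among the 10 genes, 13 kept their direction and their call under all 18 alternatives other than the stricter thresholds, every call of Ankrd1, Crim1 and Wwc1 included. The other 6 were those of Amotl2 and Axl in NetKD cells, of Amotl1, Lats2 and Tead1 in SapKD cells and of Lats2 between the knockdowns. Leaving out 1 array gave 2 to 3 genes higher, 3 to 4 lower and 3848 to 4766 of all genes changed in NetKD cells. It gave 3 to 4 higher, 0 to 2 lower and 5043 to 6160 of all genes in SapKD cells, and 0 to 1 higher, 5 lower each time and 4770 to 5481 of all genes between the knockdowns. A 1.5-fold threshold left 0 higher and 0 lower in NetKD, 1 higher and 0 lower in SapKD cells, 0 higher and 2 lower between them, and 510, 890 and 924 of all genes, by its construction. At an adjusted p under 0.01 the calls of Amotl2 and Axl in NetKD cells were lost, as were those of Amotl1, Lats2 and Tead1 in SapKD cells. The calls of Axl and Lats2 between the knockdowns were lost too. This left 0 lower in SapKD cells and 0 higher between the knockdowns. Median centring gave 1 lower in SapKD cells and 0 higher between the knockdowns, and an intensity trend or cyclic loess gave 2 higher between the knockdowns, and the cause was not tested. Deviations from the group means of same-numbered arrays correlated at -0.11 to 0.36 over 9 pairs, 5 of them over 0.1. For arrays of unlike number they correlated at -0.432 to 0.303 over 18 pairs, 5 of them over 0.1. Not every array correlated best with its own number, so whether the numbers mark a pairing is not settled. The replicate block gave 0 genes higher between the knockdowns (Lats2, 0.15, adjusted p = 0.0574) and changed no other call of the 10 genes, with 4985, 6263 and 5752 of all genes changed, against 4714, 5921 and 5480 without it. Several differences near 0 turned sign. In NetKD cells Ccn1 lay at 0.016 after quantile normalization and at -0.0267 to 0.0111 without 1 array, Lats2 at -0.0696 to 0.00297 without 1 array, Elk1 at -0.00527 and Srf at -0.025 with array weights and at -0.0106 to 0.0495 and -0.0227 to 0.0413 without 1 array. In SapKD cells Ccn2 lay at -0.019 after quantile normalization, -0.00592 after cyclic loess, -0.00278 with array weights and -0.00558 to 0.0167 without 1 array. Between the knockdowns Tead1 lay at -0.124 to 0.00687 without 1 array. Of the passing genes that the naming rule takes from the other lists, 20 of 21 in NetKD cells, 18 of 21 in SapKD cells and 23 of 24 between the knockdowns kept their call under every one of these alternatives that gave a value. Ccn3 in each comparison and Cnn1 in SapKD cells had 17, since they lie below the median gene level. The longer TEAD motif was in 3 windows, the shorter in 6.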
